A study of Mus musculus with 4 samples.

Results

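Complex I, the NADH:ubiquinone oxidoreductase of mitochondria, was examined here through the mRNAs of its nuclear-encoded subunits and assembly factors. Its genes were taken by name: every Entrez-numbered gene in the expression tables whose mouse symbol starts with Nduf. That gave 45 genes of 15114 listed, 37 counted as subunits and 8, whose symbols start with Ndufaf, as assembly factors. All 4 libraries, 2 per genotype, were of macrophages grown from marrow of C57BL/6 mice. The PERK KO cells had the genotype LysMcre x Eif2ak3 fl/fl. The PERK WT cells were Eif2ak3 fl/fl without the recombinase, so both groups carry floxed Eif2ak3 alleles. Eif2ak3 encodes PERK, a kinase of the endoplasmic reticulum that is activated by unfolded proteins, and LysMcre drives recombination in myeloid cells. Marrow cells of both groups had grown for 7 days with the macrophage growth factor M-CSF at 20 ng/mL, and had then received interleukin 4 (IL-4), a cytokine that induces alternative activation, at 20 ng/mL for 24 h. Unstimulated cells are not analysed here.

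Complex I takes electrons from NADH and passes them to ubiquinone while it pumps protons across the inner mitochondrial membrane. Its peripheral arm holds an N module, where NADH is oxidised, and a Q module, where ubiquinone is reduced. Its membrane arm is built from modules named here after their mitochondrially encoded subunits ND1, ND2, ND4 and ND5. A small set of core subunits does the catalysis, and many supernumerary subunits surround it. Assembly factors join the modules and leave before the enzyme is complete. IL-4-activated macrophages are known for their reliance on oxidative phosphorylation, and the study treats PERK as a metabolic regulator of such cells.

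Levels are given in FPKM, fragments scaled by gene length and by library size, as the authors deposited them. Levels of different genes can be set side by side as far as their reads were assigned to Entrez-numbered genes. Changes are log2 of (FPKM + 1), PERK KO minus PERK WT. The median change of all 9501 tested genes was -0.14 as deposited and -0.0042 after median-ratio scaling, so changes below are relative to the median gene unless called deposited. Tests are from limma, a moderated linear model fitted over all 9501 genes, with p-values adjusted by Benjamini and Hochberg. Each limma p tests the deposited change, unless it is said to be after scaling, meaning median-ratio scaling. The standard error (SE) is also that of the deposited change, from which the relative change differs by a constant. For genes of a few FPKM, where the added 1 FPKM shrinks changes, that constant can be too large and move the relative change upward. The targeted gene, Eif2ak3 (Entrez 13666), measured 6.55 and 4.88 FPKM in the KO libraries and 10.9 and 8.88 FPKM in the WT libraries, in the order of replicate numbers 1 and 2 that holds throughout. Its change was -0.56, or -0.70 as deposited (SE 0.18, limma adjusted p = 0.776), with both KO libraries below both WT libraries, and gene-level values cannot show which exons were lost. Of the summed FPKM, 54.8% and 41.1% fell on Entrez-numbered genes in the KO libraries, against 58.9% and 57.6% in the WT libraries, and 29618 features were listed in KO replicate 2 alone. The 8 macrophage markers summed to 1748 and 1442 FPKM in KO and to 1905 and 2360 FPKM in WT libraries. Among them Lyz2, the locus that carries LysMcre, alone separated the genotypes, at 253 and 201 FPKM in KO and 627 and 699 FPKM in WT libraries. Without it the sums overlapped, at 1495 and 1241 FPKM in KO and 1278 and 1661 FPKM in WT libraries. The summed markers of T cells, B cells, fibroblasts, erythroid cells, megakaryocytes and mast cells stayed at 0.38 FPKM or less per library, and those of neutrophils and dendritic cells at 3.11 FPKM or less. In bulk samples, fewer cells of a type and less RNA per cell cannot be told apart.

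The promoters of 4 genes are shown because the largest lower values among complex I genes turned on them. These are Ndufaf8 and Ndufb8, the members under an unadjusted p of 0.05, and Ndufs8 and Ndufab1, the subunits with the next largest lower values. Each run is the 250 bases before the RefSeq start on GRCm38.p6, the build also called mm10, read 5′ to 3′ on the gene's own strand. Capitals mark CCAAT, the letters bound by NF-Y, on either strand, or GCGCNNGCG, the core of the site of nuclear respiratory factor NRF1, on either strand and with overlapping matches joined. Coordinates of genes are also those of RefSeq on that build. The Ndufaf8 run is chr11:120098684-120098933 on the plus strand, the Ndufb8 run chr19:44555443-44555692 on the minus strand, the Ndufs8 run chr19:3912775-3913024 on the minus strand and the Ndufab1 run chr7:122101849-122102098 on the minus strand.
Ndufaf8: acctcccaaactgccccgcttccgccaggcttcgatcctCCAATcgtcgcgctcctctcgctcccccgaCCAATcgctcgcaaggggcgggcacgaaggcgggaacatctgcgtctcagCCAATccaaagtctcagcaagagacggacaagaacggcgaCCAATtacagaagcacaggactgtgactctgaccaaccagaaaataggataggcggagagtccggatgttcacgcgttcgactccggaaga
Ndufb8: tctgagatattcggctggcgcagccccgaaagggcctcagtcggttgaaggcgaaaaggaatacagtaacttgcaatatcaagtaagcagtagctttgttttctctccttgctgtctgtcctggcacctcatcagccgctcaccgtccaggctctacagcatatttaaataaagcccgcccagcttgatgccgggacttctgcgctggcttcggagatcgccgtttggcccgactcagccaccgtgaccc
Ndufs8: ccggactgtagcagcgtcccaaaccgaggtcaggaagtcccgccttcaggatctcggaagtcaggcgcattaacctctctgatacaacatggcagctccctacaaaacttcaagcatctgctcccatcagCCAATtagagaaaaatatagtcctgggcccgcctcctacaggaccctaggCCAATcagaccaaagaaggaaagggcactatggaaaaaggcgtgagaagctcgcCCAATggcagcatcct
Ndufab1: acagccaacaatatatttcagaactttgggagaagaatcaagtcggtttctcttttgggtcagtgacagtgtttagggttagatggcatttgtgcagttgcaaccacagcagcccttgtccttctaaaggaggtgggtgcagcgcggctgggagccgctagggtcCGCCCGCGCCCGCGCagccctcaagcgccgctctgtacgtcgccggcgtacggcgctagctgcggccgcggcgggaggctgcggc

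The Ndufaf8 window held 4 CCAAT matches and the Ndufs8 window 3, while the Ndufb8 window held neither motif. The Ndufab1 window held 3 overlapping NRF1 matches between bases -85 and -71, counted back from the start. Promoters of 40 members were found, as 42 windows. CCAAT occurred in 14 of the 42 (33.3%), against 36.0% of 9914 windows of tested genes and 33.8% of all 32851 windows. Ndufaf8, Ndufb11 and Ndufs8 held 3 or more, which is 7.14% of member windows against 4.97% of those of tested genes. The NRF1 letters occurred in 14 member windows (33.3%), against 20.9% of windows of tested genes and 9.89% of all windows, and those members included Ndufv2, Ndufs5, Ndufa12 and Ndufb4. CCGGAAGT (ETS factors such as GABP), TCAAGGTCA (estrogen-related receptors), AAGATGGC (YY1) and TGATGNAA (C/EBP-ATF sites), searched on both strands, were in 0 member windows, against 6.6%, 0.282%, 2.17% and 1.99% of windows of tested genes. The motifs were chosen with the changes known, and a match is a description of letters.

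Subunit mRNAs were abundant. Of 37 listed subunits 36 had a mean of at least 1 FPKM and were tested, and their median level was 35.2 and 30.0 FPKM in the KO libraries and 37.1 and 36.9 FPKM in the WT libraries. The median over all tested genes was 9.15 and 8.27 FPKM in KO and 9.64 and 9.60 FPKM in WT. Ndufb8 had the highest mean level, 91.97 FPKM, above 95.2% of tested genes, followed by Ndufa4 at 76.7, Ndufa3 at 74.1, Ndufa12 at 73.4, Ndufb7 at 73.0 and Ndufa7 at 72.1 FPKM. The core subunits were not the most abundant: their means ran from 19.6 FPKM for Ndufv1 to 42.3 FPKM for Ndufs8. The levels ranked alike in all libraries, with Spearman correlations between 0.976 and 0.988 over the 44 tested members, a description over genes that share each library.

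Among subunits, 3 genes whose products belong to the enzyme stood far below the rest. Ndufa11, a supernumerary subunit of the membrane arm, was listed at 0.49 and 0.67 FPKM in KO and 0.76 and 0.59 FPKM in WT libraries, and it alone among listed members was not tested. Ndufab1, the mitochondrial acyl carrier protein, averaged 1.71 FPKM and Ndufa9, a subunit at the join of the arms, 2.83 FPKM. Whether reads of these 3 genes fell on features without an Entrez number, which were not used, was not tested. The member just above the filter was Ndufaf5, with a mean of 1.07 FPKM. Ndufb1, a subunit of the ND4 module, was listed in no library. So were Ndufa4l2, an NDUFA4 paralogue known as a hypoxia-induced gene, and the 7 further Nduf symbols of the RefSeq table, which are annotated as pseudogenes except for Ndufb4b and Ndufb4c. The 7 mitochondrially encoded subunits were not listed either, so only the nuclear part of the enzyme was measured.

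**Figure D1:**
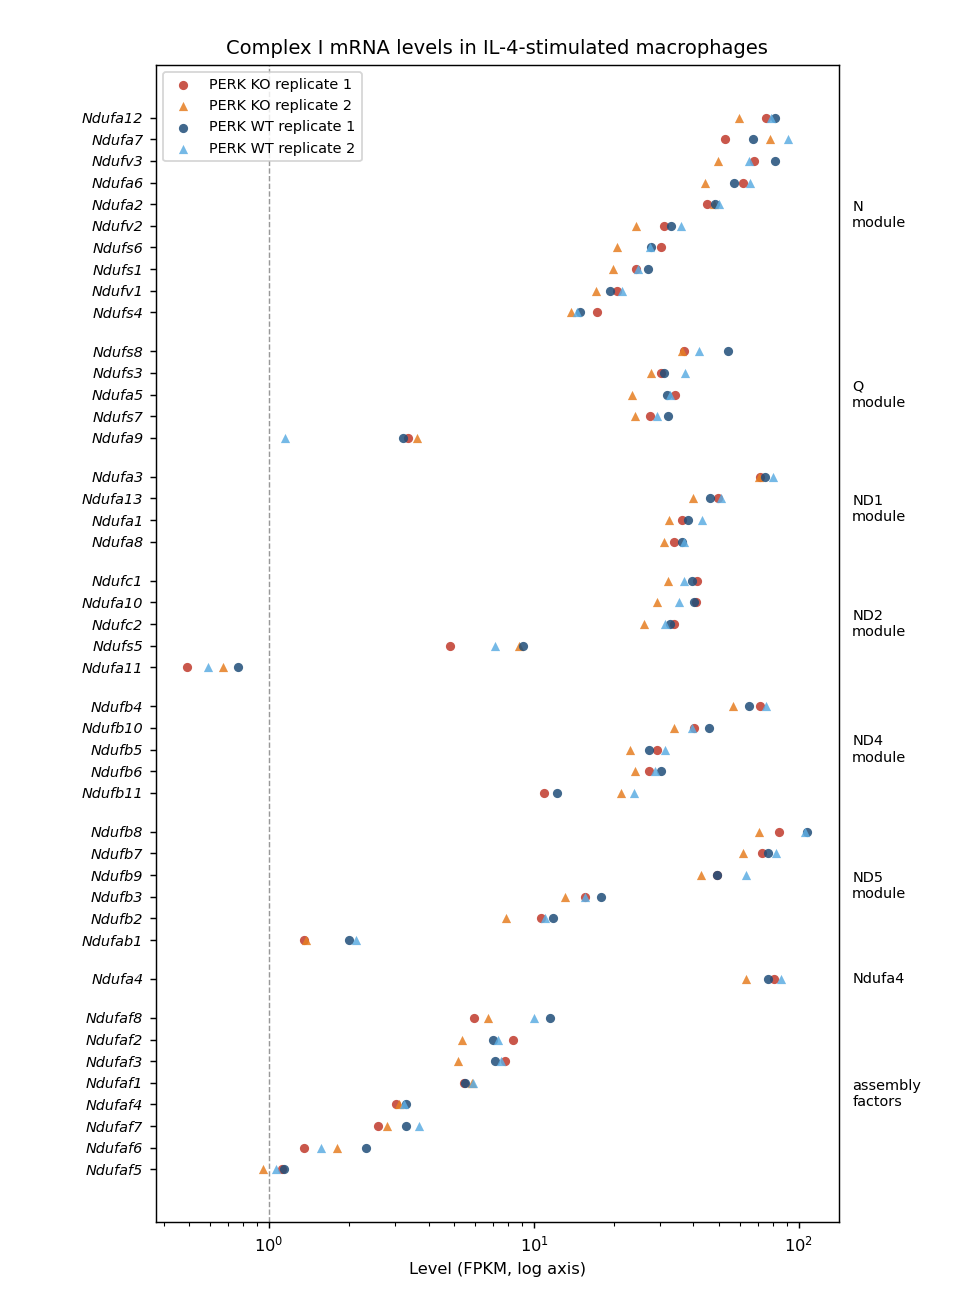
Level of all but 1 of the 45 listed complex I genes in every library, in FPKM on a log axis, with genes grouped by structural module and ordered by mean level. Most subunits lie between 10 and 100 FPKM, the Ndufaf assembly factors lie below 12 FPKM, and Ndufa11, the gene left of the dashed 1 FPKM line in all libraries, was not tested.

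No complex I gene passed the threshold of an adjusted p of 0.05. Of 9501 genes 2 did, or 0.0211%, and neither is a member. Among 36 tested subunits 0 were higher and 1, Ndufb8, was lower in KO at an unadjusted p under 0.05, where the background was 0.705% of all tested genes higher and 3.52% lower. Among 8 assembly factors 0 were higher and 1, Ndufaf8, was lower. After median-ratio scaling the same 2 genes were under 0.05, against a background of 1.87% higher and 1.27% lower. The 95% interval of the deposited change lay between -1 and 1 on the log2(FPKM + 1) scale for 41 of 44 members, and for 8794 of all 9501 genes. For genes of a few FPKM that scale understates the change in level, so it sets no 2-fold bound on them. The exceptions were Ndufaf8 with a lower bound of -1.03, Ndufb11 with -1.06 and Ndufa9 with an upper bound of 1.32.

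The subunits as a class lay slightly below the median gene. Their median change was -0.06 (quartiles -0.11 and 0.01), and 26 of 36 lay below the median gene, where by construction 4750 of 9501 do. The quartiles over all tested genes were -0.09 and 0.11. Assembly factors had a median of 0.01 with 4 of 8 below, and a median of -0.0019 after median-ratio scaling. Both KO libraries lay below both WT libraries for 16 subunits as deposited, against a background of 35.6%, and for 5 after median-ratio scaling, or 13.9% against a background of 14.1%. Both KO libraries lay above for 1 subunit as deposited, against 4.14%, and for 2 after scaling, against 15.0%. After scaling, the share below is close to that of all genes, whereas 2 of 36 above is fewer than the background share. The difference was not tested.

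**Figure D2:**
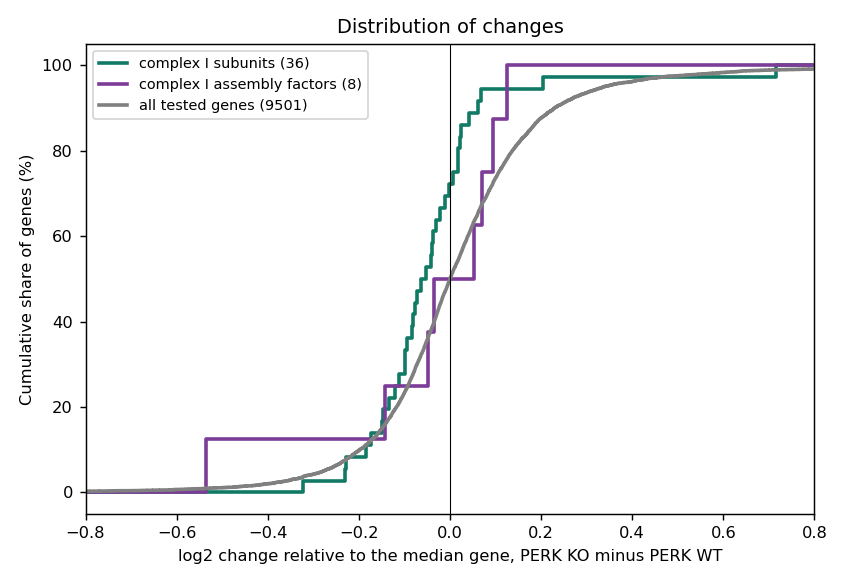
Cumulative share of genes by log2 change relative to the median gene, PERK KO minus PERK WT, for 36 complex I subunits, 8 assembly factors and all 9501 tested genes, with the axis limited to 0.8 either way. The subunit curve lies left of the curve of all genes around 0, where 26 of 36 subunits are below the median gene, and ends at Ndufa9 on the right.

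Within the N module, which binds the flavin and the first iron-sulfur clusters, 7 of 10 genes lay below the median gene and the module's median was -0.08. Ndufv1, which carries the flavin and an iron-sulfur cluster, measured 20.5 and 17.2 FPKM in KO and 19.4 and 21.5 FPKM in WT libraries, a change of 0.02 (SE 0.16). Ndufs1, the largest iron-sulfur subunit, measured 24.3 and 19.9 FPKM in KO and 26.9 and 24.7 FPKM in WT, a change of -0.08 (SE 0.16). Ndufv2, also an iron-sulfur subunit, had the smallest p of the module. It measured 31.1 and 24.4 FPKM in KO and 33.0 and 35.9 FPKM in WT, with both KO libraries below, and its change was -0.17, or -0.31 as deposited (SE 0.17, limma unadjusted p = 0.112, adjusted p = 0.776, and unadjusted p = 0.190 after scaling). Ndufs4, an accessory subunit whose loss in mice gives a model of Leigh syndrome, stood on the other side. Its level was 17.3 and 13.8 FPKM in KO against 14.9 and 14.6 FPKM in WT, so the deposited libraries overlap, but after median-ratio scaling both KO libraries lay above. The change was 0.20, or 0.06 as deposited (SE 0.16), and the unadjusted limma p was 0.698 as deposited and 0.103 after scaling. Ndufa12, the most abundant gene of the module, measured 75.2 and 59.2 FPKM in KO and 81.1 and 78.3 FPKM in WT. Ndufa6 measured 61.6 and 44.2 FPKM in KO and 56.8 and 65.2 FPKM in WT, with overlap. It lies on chromosome 15 (82350139 to 82354291), 1076 bases from Smdt1. Smdt1 was listed in neither KO library and had 49.05 and 55.93 FPKM in WT libraries. Whether its reads fell on features without an Entrez number in the KO libraries was not tested.

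In the Q module, where electrons reach ubiquinone, 5 of 6 genes had negative relative changes and the median was -0.06. Ndufs8, an iron-sulfur core subunit (Entrez 225887, chromosome 19, 3908863 to 3912774), measured 36.95 and 36.3 FPKM in KO and 53.8 and 42.0 FPKM in WT. Both KO libraries lay below as deposited, and they overlapped with WT after median-ratio scaling. Its change was -0.23, or -0.37 as deposited (SE 0.17, limma unadjusted p = 0.0726, and 0.208 after scaling). It was -0.06 without WT replicate 1, the library where it was highest, and -0.41 without WT replicate 2. Ndufs7, another iron-sulfur subunit, measured 27.5 and 24.2 FPKM in KO and 32.1 and 29.2 FPKM in WT, a change of -0.10. Ndufs3, a further core subunit of the module, had a change of -0.08 (SE 0.16), and 0.04 without WT replicate 2.

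Ndufa9 (Entrez 66108, chromosome 6, 126821863 to 126849144) had the largest positive change of any member. It measured 3.34 and 3.63 FPKM in KO and 3.21 and 1.15 FPKM in WT libraries. The KO libraries lay above both WT libraries, but WT replicate 1 was close to them and WT replicate 2 was 2.79-fold lower than WT replicate 1. The change was 0.72, or 0.58 as deposited (SE 0.31, limma unadjusted p = 0.111, adjusted p = 0.776, and unadjusted p = 0.0985 after scaling). It ranged from 0.22 without WT replicate 2 to 1.20 without WT replicate 1, where the unadjusted limma p was 0.00202 and the adjusted p 0.834. The antisense gene 1700018A23Rik overlaps it.

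The ND5 module, the distal end of the membrane arm, had the lowest median of the modules, -0.14, and all 6 of its tested genes lay below the median gene. Ndufb8 (Entrez 67264, chromosome 19, 44548571 to 44555442), a supernumerary subunit often used as a protein marker of assembled complex I, measured 84.1 and 70.7 FPKM in KO and 108 and 105 FPKM in WT libraries. All its KO values lay below its WT values, as deposited and after scaling, and the WT libraries were close to each other. Its means were 77.4 ± 9.47 FPKM in KO and 107 ± 1.63 FPKM in WT (SD, n = 2 each). The change was -0.32, or -0.46 as deposited (SE 0.17, limma unadjusted p = 0.0322, adjusted p = 0.776), with an unadjusted p of 0.0248 after median-ratio scaling. Leaving out each library in turn gave -0.37 to -0.28, with an unadjusted limma p of 0.0131 without KO replicate 1, 0.0745 without KO replicate 2, 0.147 without WT replicate 1 and 0.129 without WT replicate 2. The transcript Gm20538 overlaps it on the same strand. Ndufab1 (Entrez 70316, chromosome 7, 122086815 to 122101848) measured 1.35 and 1.38 FPKM in KO and 2.00 and 2.12 FPKM in WT, again without overlap, but at a low level. Its change was -0.23 on the scale with 1 FPKM added, or -0.37 as deposited (SE 0.18, limma unadjusted p = 0.0854, and 0.157 after scaling). With a pseudocount of 0.1 the relative change was -0.40. Ndufb7 measured 72.7 and 61.3 FPKM in KO and 76.3 and 81.8 FPKM in WT, and it too was without overlap after scaling. Ndufb2, Ndufb9 and Ndufb3 had changes of -0.15, -0.13 and -0.07. The modules were compared by their medians, and the difference between them was not tested.

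In the other membrane modules the genes sat close to the median gene. The ND1 module had a median of -0.01 over 4 genes, the ND2 module 0.03 over 4 and the ND4 module -0.02 over 5. Ndufa3, the most abundant of the ND1 module, measured 71.4 and 70.7 FPKM in KO and 74.6 and 79.95 FPKM in WT, a change of 0.02, and Ndufa1 had -0.09. Ndufc1, of the ND2 module, had a change of 0.07 that was -0.07 as deposited. Ndufb4 and Ndufb6, of the ND4 module, had changes of 0.01 and -0.05. Ndufa4, which carries the complex I name but is now assigned to complex IV, measured 80.8 and 63.4 FPKM in KO and 76.6 and 85.9 FPKM in WT libraries, a change of -0.04. In all of these the SE was between 0.15 and 0.19, larger than the relative change. The deposited changes of Ndufa1 and Ndufb6 were larger in size than their SE, at -0.23 (SE 0.16) and -0.19 (SE 0.15).

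**Figure D3:**
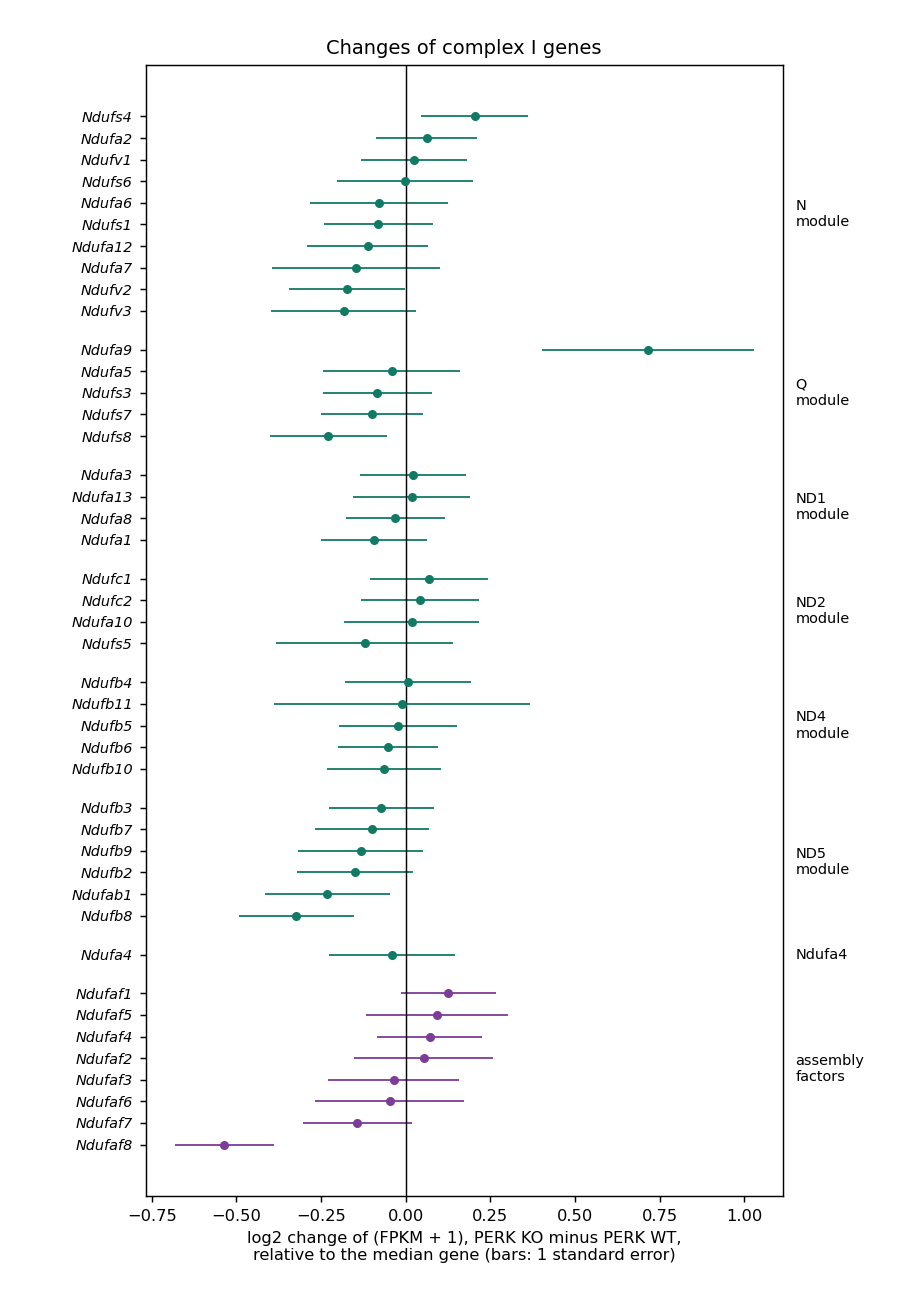
Log2 change of all but 1 of the 44 tested complex I genes relative to the median gene, PERK KO minus PERK WT, with bars of 1 standard error; genes are grouped by module, subunits in green and Ndufaf assembly factors in purple. All 6 ND5 module genes lie left of 0, Ndufaf8 lies farthest left at -0.54 and Ndufa9 farthest right at 0.72 with a wide bar.

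Some subunits varied more between replicates than between genotypes. Ndufb11, an ND4 module subunit encoded on the X chromosome, measured 10.9 and 21.3 FPKM in KO and 12.2 and 23.8 FPKM in WT libraries. Replicate 2 was 1.96-fold above replicate 1 in KO and 1.95-fold in WT, while its change between genotypes was -0.01 (SE 0.38). It overlaps Rbm10 on the opposite strand and has a near-identical copy, Gm6444. Ndufa7, an N module subunit, likewise measured 52.6 and 77.7 FPKM in KO and 67.0 and 91.2 FPKM in WT. Ndufs5, a subunit of the ND2 module, differed more between the KO than between the WT libraries, at 4.80 and 8.80 FPKM in KO, against 9.07 and 7.10 FPKM in WT. Without KO replicate 1 its change was 0.33 and without KO replicate 2 it was -0.58. These 3 genes were chosen after their values were seen.

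Assembly factor mRNAs were much scarcer than subunit mRNAs. Their median level was 4.22 and 4.13 FPKM in KO and 4.39 and 4.79 FPKM in WT libraries, and the median subunit level exceeded it 8.36- and 7.27-fold in KO and 8.47- and 7.71-fold in WT. Together the assembly factors took 0.0133% and 0.0139% of the FPKM of Entrez-numbered genes in KO, against 0.0152% and 0.0142% in WT. The subunits took 0.524% and 0.532% in KO, against 0.548% and 0.545% in WT.

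Ndufaf8 (Entrez 208501, chromosome 11, 120098934 to 120100424) was the complex I gene with the smallest p. In human cells its product works with NDUFAF5, an early-acting factor that hydroxylates the core subunit NDUFS7. It measured 5.96 and 6.71 FPKM in KO and 11.5 and 10.0 FPKM in WT libraries. Both KO libraries lay below both WT libraries, as deposited and after scaling. The scaled values of Ndufaf8 were 5.90 and 7.52 FPKM in KO and 10.9 and 9.42 FPKM in WT, with a narrower gap between the genotypes. Its means were 6.34 ± 0.53 FPKM in KO and 10.7 ± 1.03 FPKM in WT (SD, n = 2 each). The change was -0.54, or -0.68 as deposited (SE 0.15) with a 95% interval of -1.03 to -0.32. It did not pass over all genes (limma unadjusted p = 0.00286, adjusted p = 0.776), and after median-ratio scaling the unadjusted p was 0.0165. Leaving out each library in turn gave -0.69 to -0.39, with unadjusted limma p-values between 0.00588 and 0.0241. GENCODE places no other gene over it and lists no near-identical copy.

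None of the other Ndufaf genes had an unadjusted limma p under 0.05. Ndufaf5, the partner of Ndufaf8, measured 1.12 and 0.95 FPKM in KO and 1.14 and 1.06 FPKM in WT libraries. Its change was 0.09, or -0.05 as deposited (SE 0.21), and 0.04 after median-ratio scaling. Ndufaf7, a mitochondrial arginine methyltransferase, measured 2.57 and 2.79 FPKM in KO and 3.28 and 3.68 FPKM in WT, without overlap as deposited and with overlap after scaling, a change of -0.14, or -0.28 as deposited (SE 0.16, limma unadjusted p = 0.125, and 0.335 after scaling). Ndufaf3 and Ndufaf4, which bind the early Q module together, had changes of -0.04 and 0.07, or -0.18 and -0.07 as deposited. Both KO libraries of Ndufaf4 lay below WT as deposited, at 3.01 and 3.09 against 3.28 and 3.22 FPKM, and overlapped after scaling. Ndufaf1, a core part of the complex that builds the membrane arm, measured 5.42 and 5.84 FPKM in KO and 5.49 and 5.90 FPKM in WT, a change of 0.13 (-0.01 as deposited). Ndufaf2, a paralogue of Ndufa12 that acts late in assembly, measured 8.35 and 5.33 FPKM in KO and 7.03 and 7.31 FPKM in WT. The change of Ndufaf2 was 0.05 (-0.09 as deposited). Its KO libraries lay on either side of WT, and without KO replicate 1 the change was -0.15. Ndufaf6 measured 1.35 and 1.80 FPKM in KO and 2.32 and 1.57 FPKM in WT, a change of -0.05.

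**Figure D4:**
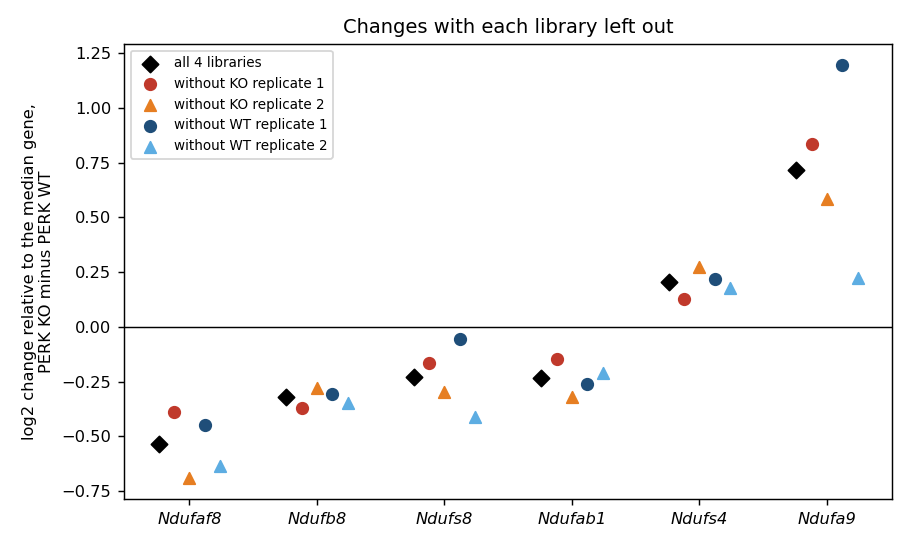
Log2 change relative to the median gene, PERK KO minus PERK WT, of 6 complex I genes with all libraries (black diamonds) and with each library left out in turn. Ndufaf8 stays between -0.69 and -0.39 and Ndufb8 between -0.37 and -0.28, while Ndufs8 runs from -0.41 without WT replicate 2 to -0.06 without WT replicate 1, and Ndufa9 from 0.22 without WT replicate 2 to 1.20 without WT replicate 1.

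Assembly factors with other names were also centred near the median gene. Of 15 in the list, 13 were tested; 8 were below it and their median change was -0.02, and limma had 0 at an adjusted p of 0.05 and 0 at an unadjusted p under 0.05. Foxred1, an oxidoreductase needed for assembly, measured 6.83 and 7.20 FPKM in KO and 8.38 and 10.1 FPKM in WT libraries, a change of -0.21, or -0.35 as deposited (limma unadjusted p = 0.0540, and 0.203 after scaling). Ecsit, a partner of Ndufaf1, measured 3.53 and 2.22 FPKM in KO and 4.73 and 3.87 FPKM in WT, a change of -0.33, or -0.47 as deposited (limma unadjusted p = 0.0654, and 0.120 after scaling). Acad9 and Tmem126b, of the same membrane arm complex as Ndufaf1 and Ecsit, had changes of 0.06 and 0.08.

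No regulator known to drive nuclear respiratory genes passed the test. Of 9 listed, 7 were tested, with a median of 0.09, 5 above the median gene and 0 under an unadjusted limma p of 0.05. Gabpa measured 4.65 and 5.99 FPKM in KO and 7.68 and 4.99 FPKM in WT libraries, and Yy1 22.97 and 17.7 FPKM in KO and 22.4 and 23.2 FPKM in WT, both with overlap. Ppargc1a, the coactivator PGC-1α, was listed only in KO replicate 2, at 0.01 FPKM, and Ppargc1b was at 0.59 and 0.15 FPKM in KO and 0.42 and 0.35 FPKM in WT, under the filter.

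The nuclear-encoded subunits of complexes II to V had a median change like that of complex I subunits, at a higher median level (87.1 against 35.5 FPKM). Of 43 tested, 30 were below the median gene. Their median change was -0.05, and the difference from complex I was not tested. After scaling, both KO libraries lay below both WT libraries for 9 of 43 (20.9%, against 13.9% of complex I subunits and 14.1% of all tested genes). Both lay above for 5 of 43, against a background of 15.0%. By complex, the median was 0.01 in complex II, -0.07 in complex III, -0.02 in complex IV and -0.08 in complex V. Uqcrq and Uqcr11, small subunits of complex III, were under an unadjusted limma p of 0.05 as deposited and not after median-ratio scaling. Both were lower in KO, which is 2 of 43, against a background of 3.52% of all tested genes lower as deposited. The genes with the smallest p in the other complexes had changes of -0.16 (Sdhb) and -0.05 (Sdha) in complex II, -0.16 (Cox4i1) and -0.09 (Cox8a) in complex IV and -0.18 (Atp5c1) and -0.17 (Atp5h) in complex V, all above an unadjusted p of 0.05. Uqcr11 measured 77.6 and 73.1 FPKM in KO and 101 and 98.03 FPKM in WT libraries.

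The class levels of single libraries bear on the small difference between genotypes. Each log2 level was taken as a deviation from the gene's own mean over the 4 libraries. The median deviation of all tested genes in that library was then subtracted. On that scale the median of the complex I subunits stood at 0.01 and -0.07 in the KO libraries and at 0.01 and 0.03 in the WT libraries. KO replicate 1 and WT replicate 1 were alike, and KO replicate 2, the library with 41.1% of its FPKM on Entrez-numbered genes, lay lowest. After median-ratio scaling, 16 of 36 subunits had their lowest value in KO replicate 2, or 44.4%, against 27.5% of all tested genes, and as deposited 30 of 36 did, against 60.8%. Without KO replicate 2 the subunit median was -0.04 with 23 of 36 below the median gene, and 1 subunit, Ndufs5, was lower at an unadjusted p under 0.05 (background 2.47%). Without WT replicate 1 it was -0.05 with 26 below, 0 lower at that p (background 1.73%) and 1, Ndufa9, higher (background 0.547%). Without KO replicate 1 it was -0.11 with 29 below and 8 subunits under an unadjusted p of 0.05, where 11.7% of all tested genes were also lower. Without WT replicate 2 it was -0.01 with 19 below and 0 lower at that p (background 4.19%). Ndufaf8 was lower at that p in each of these 4 fits, and Ndufaf3 as well without KO replicate 1. The assembly factors stood at -0.06 and 0.05 in KO and at -0.01 and -0.01 in WT. The part of the composition of KO replicate 2 in these differences was not tested.

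**Figure D5:**
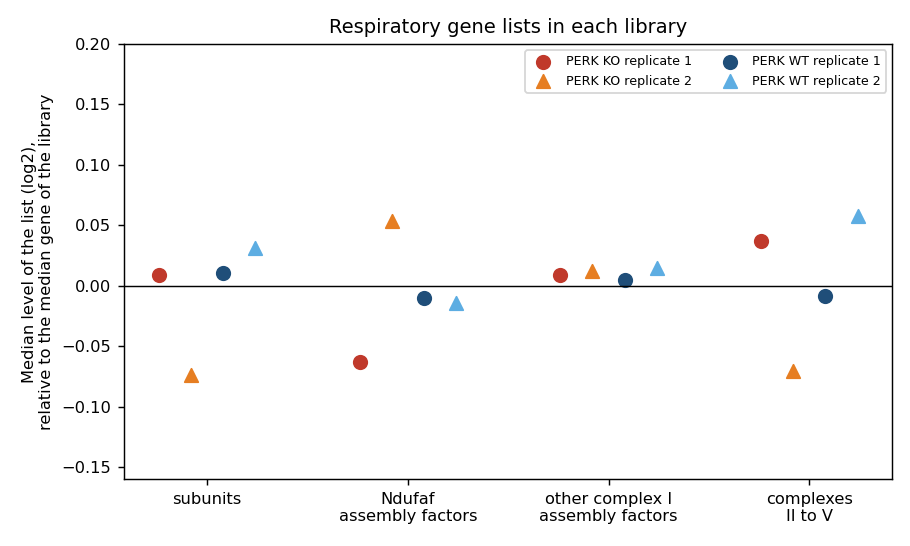
Median deviation of 4 gene lists in each library on the log2 scale, with KO libraries left of WT libraries in each list. Each gene's deviation is from its own mean over the 4 libraries, less the median deviation of all tested genes in that library. The complex I subunits lie between -0.07 in KO replicate 2 and 0.03 in WT replicate 2, and complexes II to V are likewise lowest in KO replicate 2.

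Gene structure was set beside the changes. The member transcripts of GENCODE ranged from 419 to 4371 bases. Over the 44 tested members, transcript length had a Spearman correlation of 0.07 with the change and -0.48 with the level, given as descriptions. Of 45 members, 17 overlap another annotated gene on the opposite strand and 5 on the same strand, among them Ndufb8 with the transcript Gm20538. Ndufb11, Ndufs3 and Ndufs6 have a copy elsewhere of at least 95% identity over at least 50% of the transcript. Whether reads were counted by strand is not given in the sources used here, so values of overlapping genes are less certain. With 2 libraries a genotype, an exact permutation test of 2 against 2 cannot go below p = 0.333.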

How the data were processed

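The 4 libraries were built with a stranded TruSeq kit after Ribo-Zero depletion and read on a HiSeq, per the labels' protocols. The deposited values are FPKM, computed by the authors, per the file headers. Per the submitters' processing notes the tools included RSEM, Bowtie2, StringTie and HISAT, with mm10 as build, without versions; the annotation and use of strand are not given in the sources used here. Depth is unknown, so no counting interval is given. A gene missing from a library was set to 0. Of 15114 Entrez-numbered genes, 15094 matched a RefSeq symbol (GRCm38.p6), while 76534 features without an Entrez number were not used.

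Genes averaging 1 FPKM or more (9501) were compared as log2(FPKM + 1) with limma 3.58.1 in R 4.3.3 (trended prior variance, two-sided, no block, Benjamini-Hochberg adjustment over all 9501). The labels do not say that the libraries of a genotype came from separate animals or cultures, so p-values reach no further than these libraries. Each p rests on the spread of the gene's own libraries and on a prior variance taken from all 9501 genes. The fit was also run on simulated normal values, with variances drawn from its own prior and no shift of whole libraries. That run checks the code and cannot show how well the fit suits these libraries. Alternatives were median-ratio scaling, rescaling to an equal total over Entrez-numbered genes, a pseudocount of 0.1, no filter, a minimum mean of 5 FPKM, the replicate number as a block, and leaving out each library. Structure, overlaps and copies came from GENCODE vM21 and promoters from RefSeq, both on GRCm38. The genes named follow a rule: core subunits, Ndufa4, Ndufa4l2, Ndufab1, all Ndufaf genes, per module the most abundant gene and that with the smallest p, every member under an unadjusted p of 0.05, the 3 subunits with the largest change either way, and 2 genes of each other list by p. Others are named as members described by module. The values of 1 subunit are not reported here, though class counts and medians include it. The members, lists and rule were chosen with earlier results of these data known.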

Additional observations from a re-analysis of the deposited data

How the results depend on the processing

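The subunit median stayed negative under all 10 alternatives, at -0.05 with either rescaling, a pseudocount of 0.1 or a minimum of 5 FPKM, and moved to -0.13 with no filter on low values, where the assembly factor median moved to -0.072. With no filter, 35 of 37 subunits and 6 of 8 assembly factors lay below the median gene, against 26 of 36 and 4 of 8 with it. There, weakly expressed genes enter and the median gene of the fit moves to -0.06. Leaving out each library gave a subunit median of -0.11 to -0.014, an assembly factor median of -0.014 to 0.053, 0 to 8 subunits and 1 to 2 assembly factors under an unadjusted p of 0.05, and 2 to 43 genes past the threshold over all genes (43 without WT replicate 2). Each such fit has 1 library in an arm, assumed to vary like the others. With the replicate block the calls over all genes numbered 14, none a complex I gene, Ndufb8 had an unadjusted p of 0.0693 and Ndufa9 of 0.0262. Same-numbered libraries deviated together with a correlation of 0.078, and the labels give no pairing.

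No complex I gene named here passed the threshold under any alternative. With no filter the changes of Ndufa3, Ndufaf2, Ndufaf4, Ndufb4, Ndufc1 and Ndufv1 turned to -0.059, -0.027, -0.011, -0.075, -0.012 and -0.057. Leaving out a library changed the sign of these genes, given as lowest and highest values: Gabpa -0.33 to 0.21, Ndufa3 -0.054 to 0.091, Ndufa4 -0.14 to 0.051, Ndufaf1 -0.0018 to 0.25, Ndufaf2 -0.15 to 0.25, Ndufaf3 -0.21 to 0.14, Ndufaf4 -0.026 to 0.16, Ndufaf6 -0.26 to 0.15, Ndufb4 -0.10 to 0.10, Ndufc1 -0.032 to 0.16, Ndufs3 -0.21 to 0.036, Ndufs5 -0.58 to 0.33, Ndufv1 -0.051 to 0.088, Sdha -0.10 to 0.0035 and Yy1 -0.14 to 0.069. Of the 38 genes named by the rule and tested, the other 23 kept their sign under all alternatives that could be fitted. Members named outside the rule, such as Ndufb11, Ndufa7 and Ndufa6, were not followed for changes of sign.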
